A study of Homo sapiens with 3 samples.

Results

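The SOX, PAX and GATA genes encode transcription factors that set cell lineages, and they were chosen by name, as the rows named SOX, PAX1 to PAX9 or GATA1 to GATA6 on the assembled chromosomes. There were 34 such genes among 39320 gene rows, made up of 19 SOX, 9 PAX and 6 GATA genes. Their RNA was measured by RNA-seq of polyA RNA in 3 libraries labelled HepG2, a cell line established from a human liver cancer, with the wild-type genotype and no treatment. All 3 libraries belong to 1 condition, and the labels do not say whether they came from separate cultures, so the spread between them may be technical. Levels are given in TPM, a unit of RNA level that is scaled for gene length and gives every library an equal total, and every SD is over n = 3 libraries.

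SOX proteins bind DNA through a high-mobility-group (HMG) box and bend it, PAX proteins bind through a paired domain, and GATA proteins bind through zinc fingers. Each family contains close paralogues that mark different tissues, so the members that a cell transcribes can be set beside those tissues. In the liver, GATA4 and GATA6 act in the growth of the liver bud, SOX17 is a factor of the endoderm from which the liver arises, and SOX9 marks bile ducts and liver progenitors. Most PAX genes are known from other tissues, such as the eye, kidney, thyroid, muscle and B cells.

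The label was first checked against genes for proteins that hepatocytes secrete. Of 20 such genes, 17 stayed under 1 TPM throughout, and 11 of these, ALB and APOA1 among them, had a value of 0 in every library. Among all protein-coding rows, 59.5% reached 1 TPM in every library and 20.0% were listed at 0 in every library. The exceptions among the 20 genes were RBP4, VTN and C3, and the summed level of the list was 47.2 to 49.0 TPM. TTR, HPX and AMBP were above 0 in every library but below 0.5 TPM. These values go against the hepatocyte origin that the label gives, and what the cells were was not tested, so the values below hold for the libraries labelled HepG2. The ratio of coverage to FPKM, which by the definitions of both units is the number of aligned gigabases, had its highest value at 13.3, 12.8 and 11.5 in replicates 1, 2 and 3. The mitochondrial tRNA gene TRNC took 16.9% to 17.2% of all TPM, which lowered the TPM of the other genes alike.

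The promoters of 22 of the 34 genes were listed in RefSeq (GRCh38.p14), as windows from 250 bases before to 50 bases after the start of a transcript. The 250 bases before the start are shown for 4 genes, of which GATA2 and SOX4 were expressed and SOX2 and PAX4 were listed at 0 in every library. They were chosen, after the values were known, to show a window with many and a window with few CpG dinucleotides, the sites of DNA methylation, on each side. Where RefSeq listed several starts, the one nearest to the start of the deposited gene row was used. The start used lay 1223 bp from that of the row for SOX30, 450 bp for SOX1 and 313 bp for PAX2. These genes were all listed at 0, and the start was closer for every other gene. The capitals mark CpG. The window of GATA2 lies on the minus strand at chr3:128493202-128493451, that of SOX4 on the plus strand at chr6:21593501-21593750, that of SOX2 on the plus strand at chr3:181711675-181711924 and that of PAX4 on the minus strand at chr7:127618143-127618392.
GATA2: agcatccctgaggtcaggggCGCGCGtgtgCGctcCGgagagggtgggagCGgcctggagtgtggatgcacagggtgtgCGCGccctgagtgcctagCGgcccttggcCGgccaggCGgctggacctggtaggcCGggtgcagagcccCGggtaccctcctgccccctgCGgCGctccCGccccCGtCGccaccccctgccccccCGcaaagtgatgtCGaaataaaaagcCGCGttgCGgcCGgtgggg
SOX4: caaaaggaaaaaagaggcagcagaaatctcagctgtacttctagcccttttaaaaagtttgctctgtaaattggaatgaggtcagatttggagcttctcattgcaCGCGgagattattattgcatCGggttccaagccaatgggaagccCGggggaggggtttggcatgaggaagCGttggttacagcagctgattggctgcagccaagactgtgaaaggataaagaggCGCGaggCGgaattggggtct
SOX2: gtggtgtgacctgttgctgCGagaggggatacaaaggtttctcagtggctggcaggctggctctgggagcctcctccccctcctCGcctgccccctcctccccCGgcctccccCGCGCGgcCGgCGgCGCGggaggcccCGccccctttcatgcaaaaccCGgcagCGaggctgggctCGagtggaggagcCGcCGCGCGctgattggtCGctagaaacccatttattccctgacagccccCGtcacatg
PAX4: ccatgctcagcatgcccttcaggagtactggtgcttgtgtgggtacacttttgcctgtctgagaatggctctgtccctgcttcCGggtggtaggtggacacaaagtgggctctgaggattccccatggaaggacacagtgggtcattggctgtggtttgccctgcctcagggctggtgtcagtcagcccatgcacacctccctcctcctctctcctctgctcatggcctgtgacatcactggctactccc

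The GATA2 sequence holds 24 CpG in 250 bases and the silent SOX2 sequence holds 20, while the SOX4 sequence holds 8 and the PAX4 sequence holds 1. A window was counted as CpG-rich when at least 50% of its bases were G or C and the observed number of CpG was at least 0.6 of that expected from its C and G. Of the 22 genes, 15 had a CpG-rich window, against 46.9% of 35116 RefSeq promoters. The percentages of RefSeq promoters, here and for the motifs below, cover every listed start, with several for some genes. Each of the 22 genes has 1 window, so these shares are not like for like. Of the matched genes with at least 1 TPM in every library, 6 of 9 had a CpG-rich window, and of those listed at 0 in every library, 7 of 9 did. The expressed and the silent genes thus overlapped in CpG content. SOX12, with 18.3 TPM, had the highest ratio of observed to expected CpG at 1.12, and PAX7, listed at 0, came next at 1.07. Windows of SOX4 and PAX8 were not CpG-rich, with ratios of 0.485 and 0.483, although both genes were expressed, and that of SOX13 fell just short at 0.597.

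**Figure D1:**
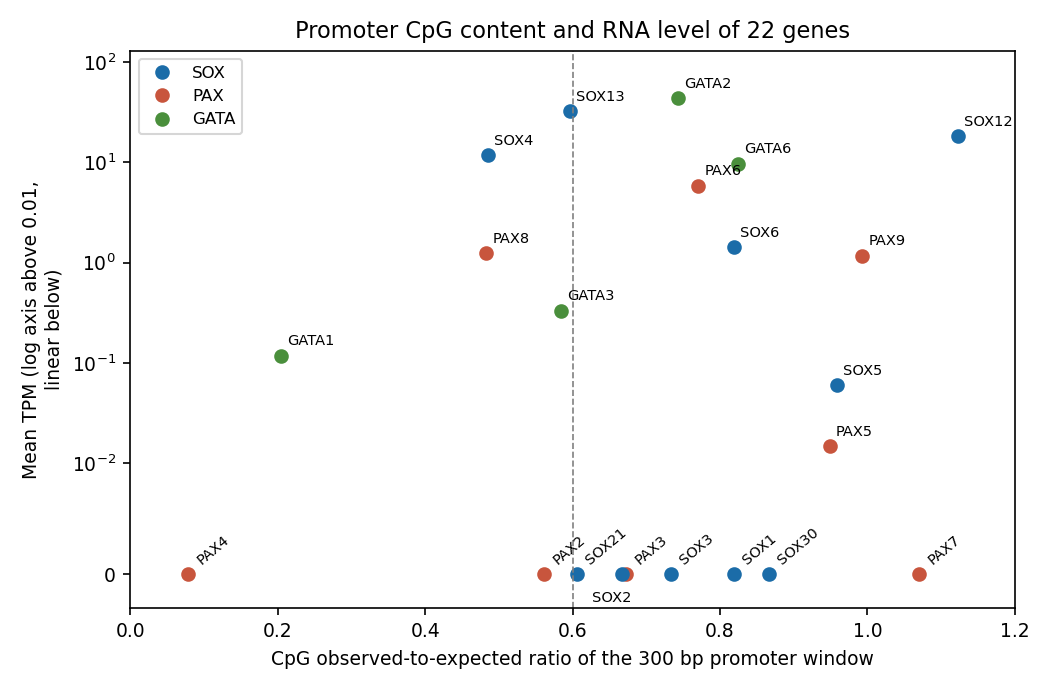
Mean TPM (vertical axis, logarithmic above 0.01 TPM and linear below) against the observed-to-expected CpG ratio of the promoter window (horizontal axis) for 22 genes, 1 point a gene, coloured by family, with a dashed line at 0.6. The genes at 0 TPM spread over ratios from 0.0787 for PAX4 to 1.07 for PAX7, across most of the range of the expressed genes.

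Short motifs were counted in the same windows, on both strands. The GC box GGGCGG was found in 12 of the 22 windows and in 45.0% of all promoters, and the CCAAT box was found in 12 windows and in 34.6% of all promoters, with 4 copies in the window of SOX4. The TATA box TATAAA was found in 2 windows, those of PAX5 and SOX21, and in 11.5% of all promoters. A GATA site, written AGATAA or AGATAG or TGATAA or TGATAG, was found in the windows of PAX6 and PAX7 and in 25.0% of all promoters. The SOX core, written ACAATG or ACAAAG, was found in 4 windows, those of SOX5, PAX2, PAX4 and SOX2, and in 24.5% of all promoters. These are matches of letters and not measured binding.

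At least 1 TPM in every library was reached by 13 of the 34 genes (38.2%), against 33.8% of all 39320 gene rows and 59.5% of the 18739 protein-coding rows, to which all 34 genes belong. At least 10 TPM in every library was reached by 5 genes (14.7%), against 40.4% of protein-coding rows. Another 14 genes (41.2%) were listed at 0 in all 3 libraries, against 20.0% of protein-coding rows. The remaining 7 had values in between. These shares are descriptions, since genes of a family are not independent. In bulk RNA, fewer cells that express a gene and less RNA per cell cannot be told apart.

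**Figure D2:**
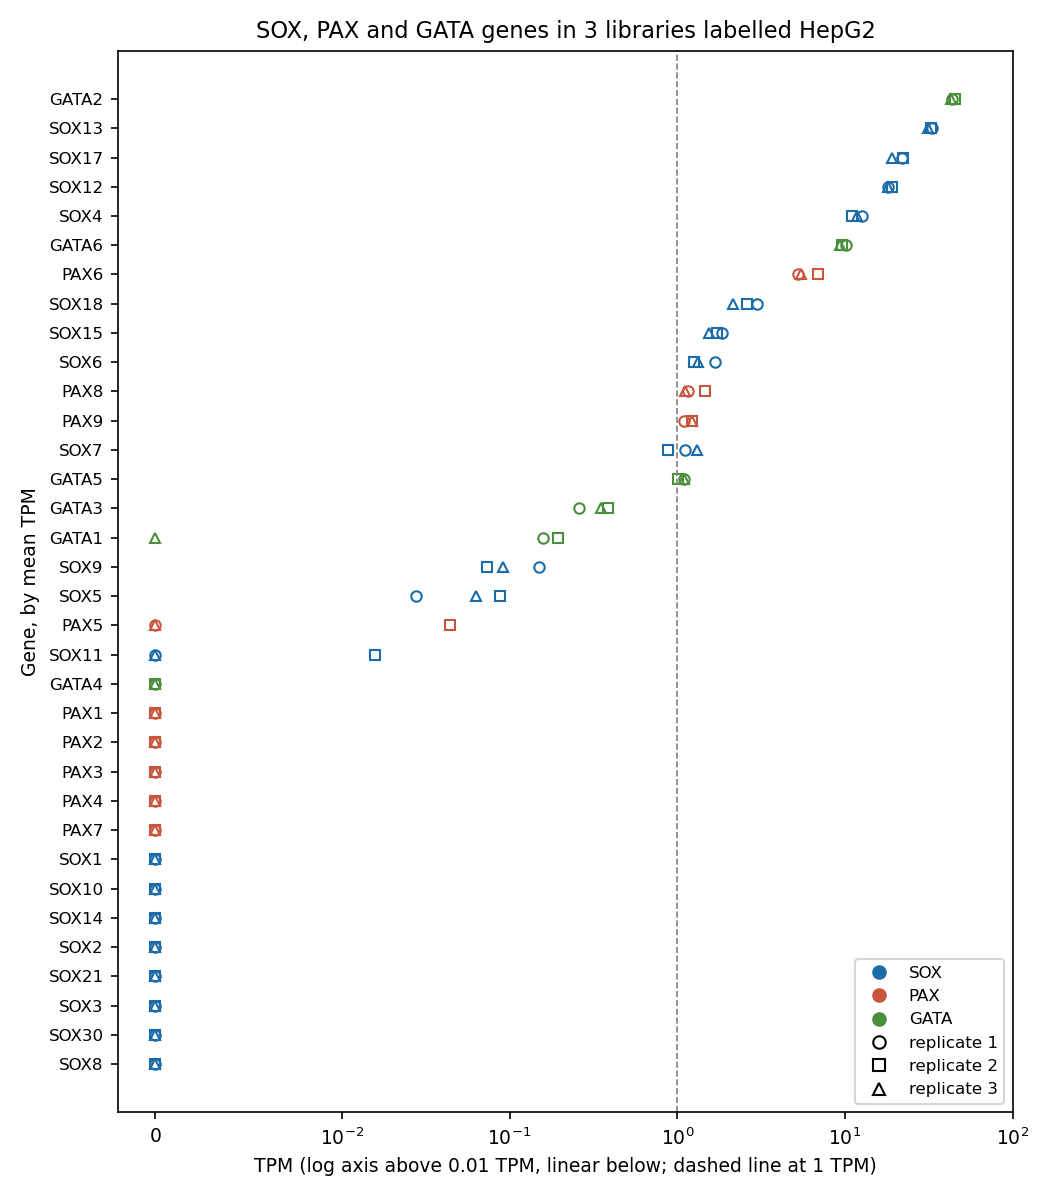
TPM of the 34 genes in each library (horizontal axis, logarithmic above 0.01 TPM and linear below, with a dashed line at 1 TPM), in the order of mean TPM, with circles, squares and triangles for replicates 1, 2 and 3 and colours for families. The levels run from 43.8 TPM for GATA2 down to 14 genes at 0, and the libraries lie close together for the upper genes.

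The order of the means began with GATA2, SOX13, SOX17, SOX12, SOX4, GATA6, PAX6 and SOX18, and for each of these the lowest library lay above the highest library of the next gene. The margin was narrow between SOX17, at 19.1 TPM in its lowest library, and SOX12, at 19.0 TPM in its highest. From SOX15 through SOX6, PAX8, PAX9 and SOX7 to GATA5, each gene overlapped with the next, so that the order of neighbours was not resolved. Genes further apart could be separate, as SOX15 was at 1.54 TPM in its lowest library and PAX8 at 1.47 TPM in its highest. Of the 19 adjacent pairs among genes above 0 in any library, 10 did not overlap and 9 did.

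GATA2, a factor of blood stem cells, endothelium and trophoblast, had the highest level of the 34 genes. It was at 43.2, 45.0 and 43.1 TPM in replicates 1, 2 and 3, a mean of 43.8 ± 1.04 TPM (SD, n = 3). This exceeded 75.7% of the 13753 gene rows whose mean was 1 TPM or more. In the deposited tables (GRCh38), GATA2 occupies positions 128479422 to 128493187 of chromosome 3, minus strand. It made up 79.6 ± 0.772% (SD, n = 3) of the summed TPM of the GATA genes.

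GATA6, an endoderm and heart factor, was the second GATA gene at 10.2, 9.56 and 9.38 TPM in replicates 1, 2 and 3, a mean of 9.71 ± 0.417 TPM (SD, n = 3). It occupies positions 22169437 to 22202528 of chromosome 18, plus strand. GATA4, its partner in liver bud growth, was listed at 0 in all 3 libraries. GATA5, also of the endoderm and heart, was near the limit at 1.10, 1.01 and 1.10 TPM. GATA3, a factor of T cells and luminal epithelium, was below 1 TPM in every library, at 0.259, 0.385 and 0.350 TPM. GATA1, the erythroid factor, was at 0.158 and 0.196 TPM in replicates 1 and 2 and was listed at 0 in replicate 3. The GATA genes were thus carried by 1 member of each branch, GATA2 beside GATA1 and GATA3, and GATA6 beside GATA4 and GATA5.

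Among the SOX genes, 7 of 19 reached 1 TPM in every library and 8 were listed at 0 in all. SOX13, a member of the SoxD group, whose proteins lack a known activation domain, was the highest at 33.2, 32.7 and 31.3 TPM in replicates 1, 2 and 3. Its mean was 32.4 ± 0.990 TPM (SD, n = 3), and it made up 35.8 ± 0.309% of the summed SOX level of 90.5 ± 3.53 TPM (SD, n = 3). It occupies positions 204073096 to 204127743 of chromosome 1, plus strand. SOX6, of the same group and known from cartilage and muscle, was far lower at 1.68, 1.26 and 1.34 TPM. SOX5, its close paralogue in cartilage, was below 0.1 TPM in every library, at 0.0277, 0.0880 and 0.0635 TPM. SOX13 made up 95.6 ± 0.470% (SD, n = 3) of the SoxD level of 33.9 ± 1.11 TPM.

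The SoxF group holds SOX17 of the endoderm and the endothelium and the vascular factors SOX7 and SOX18. SOX17 was at 21.9, 22.2 and 19.1 TPM in replicates 1, 2 and 3, a mean of 21.1 ± 1.68 TPM (SD, n = 3), with replicate 3 the lowest. It occupies positions 54457935 to 54460892 of chromosome 8, plus strand. SOX18 was at 2.98, 2.61 and 2.14 TPM. SOX7 was at 1.11, 0.880 and 1.31 TPM, so that replicate 2 alone kept it from the limit of 1 TPM in every library. SOX17 made up 85.1 ± 1.13% (SD, n = 3) of the SoxF level of 24.8 ± 1.87 TPM.

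The SoxC group, which acts in progenitor cells and young neurons, was shared by SOX12 and SOX4. SOX12 was at 18.0, 19.0 and 18.0 TPM and SOX4 at 12.6, 11.0 and 11.8 TPM in replicates 1, 2 and 3, with means of 18.3 ± 0.582 and 11.8 ± 0.809 TPM (SD, n = 3). SOX12 occupies positions 325571 to 330228 of chromosome 20 and SOX4 positions 21593741 to 21598619 of chromosome 6, both on the plus strand. SOX12 was the higher in every library and made up 60.9 ± 2.28% (SD, n = 3) of the SoxC level. SOX11, the third member, was at 0.0157 TPM in replicate 2 and listed at 0 in the others. These genes have 1 exon, so the product of coverage and length gives the aligned bases behind the values. SOX12 had 525773, 542922 and 459742 aligned bases in replicates 1, 2 and 3. SOX4 had 385251, 328750 and 315126 aligned bases in replicates 1, 2 and 3, and the value of SOX11 in replicate 2 came from 870 bases, or 5.80 reads of 150 bases.

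The SoxE group was nearly silent. SOX9, which marks bile ducts and cartilage, was at 0.150, 0.0732 and 0.0916 TPM in replicates 1, 2 and 3, while SOX8 and SOX10, known from glia and, for SOX10, melanocytes, were listed at 0 in all. SOX1, SOX2 and SOX3 of neural progenitors, with SOX2 also a pluripotency factor, were listed at 0 in all 3 libraries, as were SOX14 and SOX21 of the SoxB2 group and SOX30 of male germ cells. SOX15, the only member of the SoxG group, was at 1.85, 1.73 and 1.54 TPM.

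**Figure D3:**
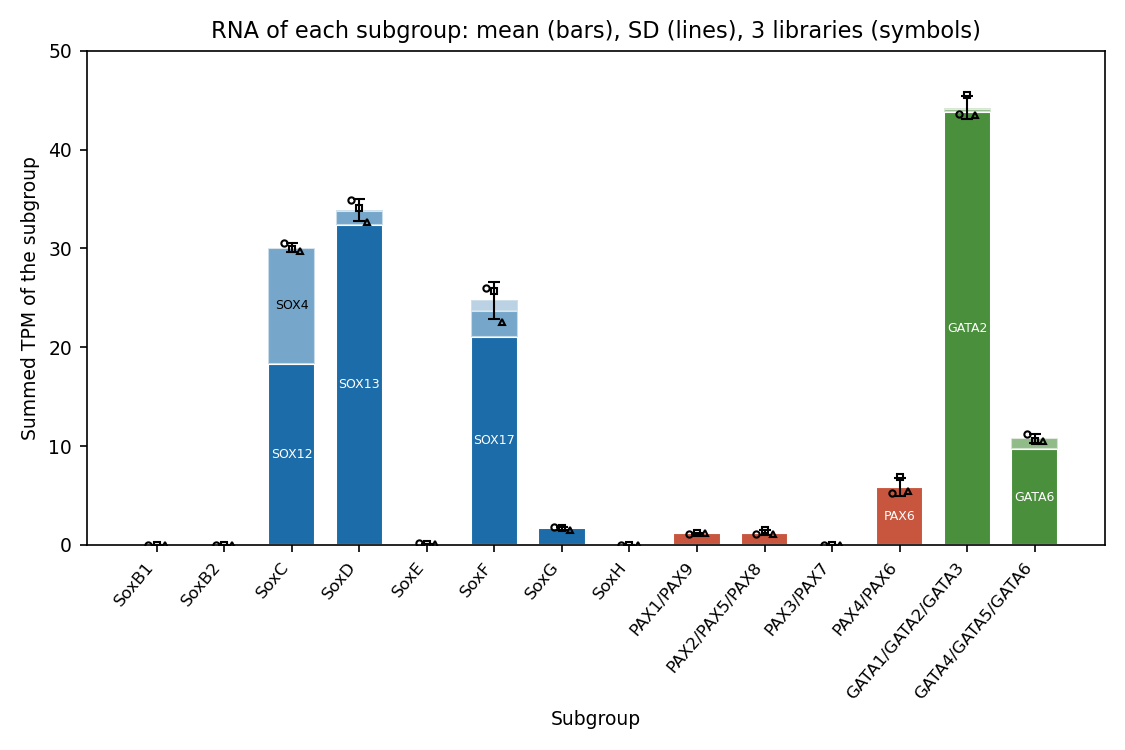
Summed mean TPM of each subgroup of paralogues (bars, divided by gene), with the SD over 3 libraries (lines) and the sum in each library (circles, squares and triangles for replicates 1, 2 and 3). The groups with GATA2, SOX13, SOX12 and SOX4, and SOX17 stand above 20 TPM, and SoxB1, SoxB2, SoxH and PAX3/PAX7 are at 0.

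The PAX genes were lower, with a summed level of 8.30 ± 1.17 TPM (SD, n = 3). PAX6, a factor of the eye, brain and pancreatic islets, was at 5.22, 6.90 and 5.45 TPM in replicates 1, 2 and 3, a mean of 5.86 ± 0.908 TPM (SD, n = 3), with replicate 2 the highest. It occupies positions 31784792 to 31817961 of chromosome 11, minus strand. Its share of the summed PAX level was 70.5 ± 0.921% by TPM and 53.4 ± 1.71% by coverage (SD, n = 3). The ratio of coverage to FPKM of PAX6 was 0.518, 0.416 and 0.504 of the highest ratio in replicates 1, 2 and 3, whereas it was 1.00 for PAX8 and PAX9 in every library. RefSeq lists 53 transcripts of PAX6, 4 of PAX8 and 2 of PAX9, and whether summing over transcripts set the ratio was not tested.

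PAX8, a factor of the thyroid, kidney and Müllerian duct, was at 1.15, 1.47 and 1.11 TPM, a mean of 1.25 ± 0.197 TPM (SD, n = 3). PAX9, known from the teeth and pharyngeal pouches, was at 1.09, 1.22 and 1.22 TPM. PAX5, the B cell factor, was at 0.0442 TPM in replicate 2 and listed at 0 in the others. PAX1, PAX2, PAX3, PAX4 and PAX7 were listed at 0 in all 3 libraries, among them the muscle and neural crest factors PAX3 and PAX7 and the beta cell factor PAX4.

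Paralogues were compared in 14 pairs, as the difference of log2(TPM + 1) between both genes of a pair in each library. In 5 of these pairs both genes were above 0 in every library. SOX4 was below SOX12 in 3 of 3 libraries, with a mean log2 ratio of -0.60 ± 0.13 (SD, n = 3). SOX13 was above SOX6 with a log2 ratio of 3.79 ± 0.11, and SOX5 was below SOX6 with -1.19 ± 0.17 (SD, n = 3). The ratio of SOX18 to SOX7 was 0.77 ± 0.28 and that of GATA2 to GATA3 was 5.07 ± 0.05 (SD, n = 3). The pseudocount understates ratios of low genes, and with 0.1 in its place the log2 ratio was -3.26 for SOX5 to SOX6, 1.16 for SOX18 to SOX7, 4.42 for SOX13 to SOX6 and 6.68 for GATA2 to GATA3. With the pseudocount of 1 kept, that of SOX5 to SOX6 was -2.86 by coverage and -0.70 by FPKM, whose values are smaller than the TPM values. The direction of each of these 5 ratios was shared by 3 of 3 libraries. An exact permutation test of their signs, two-sided, returned p = 0.25 for every one of the 5, or 0.292 when adjusted by Benjamini-Hochberg over the 14 pairs. As 0.25 is the smallest p that 3 libraries allow, no pair could pass a threshold of 0.05. In the other 9 pairs a gene was listed at 0 in some library, and no ratio is given.

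The variation between libraries was small for the higher genes. The 5 genes whose mean was 10 TPM or more had coefficients of variation from 2.38% for GATA2 to 7.96% for SOX17, with a median of 3.17%, and the median of all 8419 genes at that level was 4.88%. The 9 genes with a mean of 1 to 10 TPM ranged from 4.29% for GATA6 to 19.4% for SOX7. Their median was 15.5%, and that of all 5334 genes with a mean of 1 to 10 TPM was 9.16%. These medians are not matched for level within that span. All of the 9 genes but GATA6 and PAX6 lay in its lower part, with means of 1.07 to 2.58 TPM. A range of log2(TPM + 1) above 1 was found in 0 of the 14 members whose mean was 1 TPM or more, against 1.26% of all gene rows at that level.

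Several genes overlap a row on the other strand, and since the strand setting of the counting is not given in the sources used here, reads in the shared part could have been assigned to either row. GATA2-AS1, an antisense RNA that overlaps GATA2 over 3985 bp, was at 21.9, 18.0 and 19.0 TPM in replicates 1, 2 and 3, below GATA2 in each library. PAX8-AS1, which lies within PAX8 over 31497 bp, was at 6.39, 6.12 and 6.07 TPM and was above PAX8 in each library. Of the 24 such rows, which overlap 14 of the genes, 7 had a mean of at least 1 TPM and 15 were listed at 0 in every library. GATA6-AS1 begins 468 bp from GATA6 without overlap, and it was at 0.878, 0.942 and 1.22 TPM. The genes for other proteins, ELP4 beside PAX6, SLC25A21 beside PAX9 and MPDU1 beside SOX15, overlap them over 5533, 490 and 33 bp and had means of 7.38, 1.42 and 68.4 TPM.

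SOX18 and SOX10 lie wholly within a gene on the other strand. TCEA2, around SOX18, had 34.9 ± 1.63 TPM, and POLR2F, around SOX10, had 55.6 ± 4.11 TPM (SD, n = 3). SOX10 was listed at 0 in all 3 libraries within this expressed gene, while SOX18 had 2.58 ± 0.421 TPM (SD, n = 3). POLR2F was chosen after its values were seen. Antisense or overlapping transcripts named for members below 1 TPM were low as well. SOX2-OT was at 0, 0.0348 and 0.0145 TPM and GATA3-AS1, SOX9-AS1, SOX5-AS1, SOX21-AS1 and SOX1-OT were listed at 0 in all 3 libraries. Low values were not limited to such members, since PAX6-AS1 was at 0, 0 and 0.144 TPM in replicates 1, 2 and 3 while PAX6 was expressed.

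**Figure D4:**
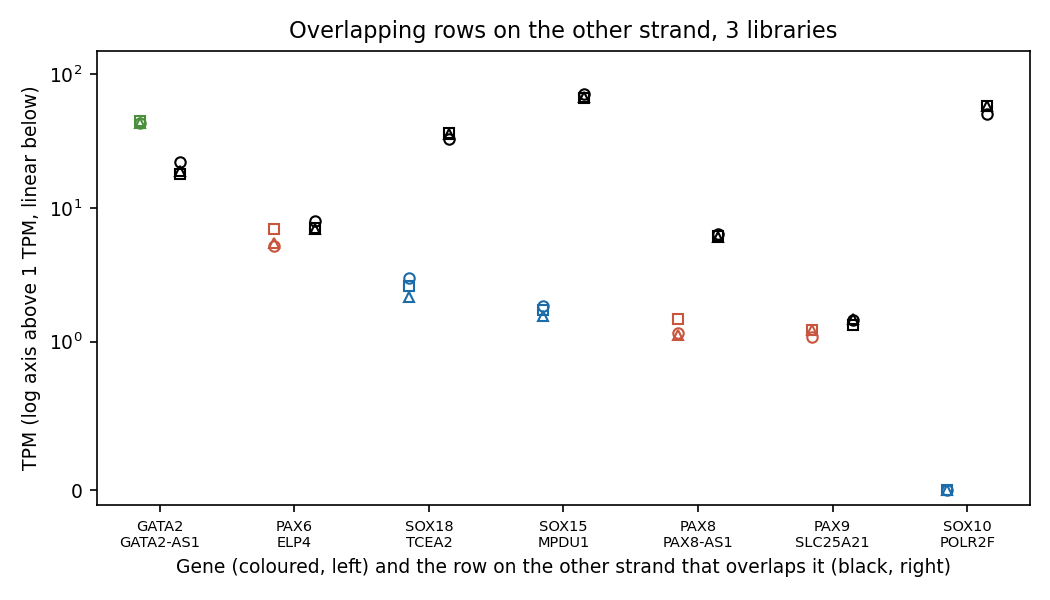
TPM (vertical axis, logarithmic above 1 TPM and linear below) of 7 genes (coloured, left) and of the row on the other strand that overlaps each (black, right), with circles, squares and triangles for replicates 1, 2 and 3. GATA2 is above GATA2-AS1, PAX8 is below PAX8-AS1, and SOX10 is at 0 within POLR2F.

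Proteins that work with these factors were examined next, and their counts are read against the 59.5% of protein-coding rows that reached 1 TPM in every library. Of 6 GATA cofactors, 3 reached 1 TPM in every library, namely LDB1, a bridging protein of GATA complexes, with 45.8 ± 1.65 TPM, the FOG family cofactor ZFPM1 with 2.59 ± 0.414 TPM and the GATA-type repressor TRPS1 with 2.62 ± 0.322 TPM (SD, n = 3). LMO2 and TAL1, partners of GATA factors in blood cells, and ZFPM2, a partner of GATA4 in the heart, were below 1 TPM in all libraries. Of 13 partners of PAX proteins, 8 reached 1 TPM, a share near that of all protein-coding rows, including the cofactor EYA4 with 28.0 ± 1.69 TPM and the homeobox factor SIX2 with 25.8 ± 0.898 TPM (SD, n = 3), while EYA1, SIX3 and SIX6 were listed at 0. Of 11 SOX partners and HMG box relatives, 5 did, including the HMG box factor TCF7L2 with 10.8 ± 0.239 TPM (SD, n = 3), and POU3F2, a neural partner of SOX proteins, was at 0.670 ± 0.0509 TPM (SD, n = 3). Of 8 genes known as SoxC targets or markers of young neurons, 6 did, with a median over the list of 48.4 TPM and with TEAD2 at 46.0 ± 1.28 TPM and TUBB3 at 149 ± 3.53 TPM (SD, n = 3), and DCX was below 0.1 TPM.

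The tissues that these factors mark were examined by lists of other genes. Their counts are again read against the 59.5% of protein-coding rows that reached 1 TPM in every library, and each list below had a smaller share. The median of the mean TPM over all gene rows was 0.0619, and over protein-coding rows it was 4.99. The medians of the lists below were under 1 TPM except for the trophoblast list, at 21.1 TPM. For GATA1, 1 of 10 erythroid and megakaryocyte genes reached 1 TPM in every library, EPOR, the erythropoietin receptor, and 5 were listed at 0. For GATA3, 1 of 6 T cell genes did, IL7R, a cytokine receptor, with 13.2 ± 0.558 TPM (SD, n = 3), while CD3D, CD3E, CD3G and CD2 were listed at 0, and so did 1 of 6 luminal and urothelial genes. For PAX5, 0 of 6 B cell genes did. For PAX3 and PAX7, 0 of 6 skeletal muscle genes did, and MYF5, MYOD1 and MYOG were listed at 0.

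For PAX8, 2 of 6 thyroid genes reached 1 TPM in every library. They were the transcription factors FOXE1 with 30.7 ± 1.54 TPM and NKX2-1 with 3.74 ± 0.130 TPM (SD, n = 3), while TG, the thyroid hormone precursor, was listed at 0. Of 6 renal epithelium genes, 0 did. For PAX6 and PAX4, 0 of 6 genes of the pancreatic islet and eye did. For SOX2, 2 of 6 pluripotency genes did, POU5F1 with 4.35 ± 0.199 TPM and SALL4 with 2.87 ± 0.227 TPM (SD, n = 3), and NANOG and LIN28A were listed at 0. POU5F1 has near-identical pseudogene copies, so its value is uncertain. Of 6 neural progenitor genes, only NES did.

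For SOX10, 1 of 8 melanocyte and glia genes reached the limit, MITF, a melanocyte regulator with isoforms in other cells, with 32.9 ± 3.15 TPM (SD, n = 3), while TYR and S100B were listed at 0. For SOX9, 2 of 6 chondrocyte genes did, COL9A2 and MATN3, and COL2A1 was below 1 TPM in all libraries. Of 6 genes of bile duct and gut epithelium, 1 did, KRT7. For SOX17 and SOX18, 1 of 6 endothelial genes did, EGFL7, a secreted vascular factor, with 42.0 ± 1.32 TPM (SD, n = 3), while KDR was listed at 0 and PECAM1 was below 0.1 TPM. GATA2 is also a factor of endothelium and blood stem cells, and the endothelial list had 1 of 6 and the erythroid and megakaryocyte list 1 of 10. Of 6 trophoblast genes, 3 reached the limit. These were CGA, the alpha subunit of glycoprotein hormones, with 631 ± 19.8 TPM, KRT7 with 544 ± 5.71 TPM and TFAP2C, a transcription factor, with 42.1 ± 0.230 TPM (SD, n = 3), while HSD3B1 and CDX2 were listed at 0 and GCM1 was below 1 TPM.

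**Figure D5:**
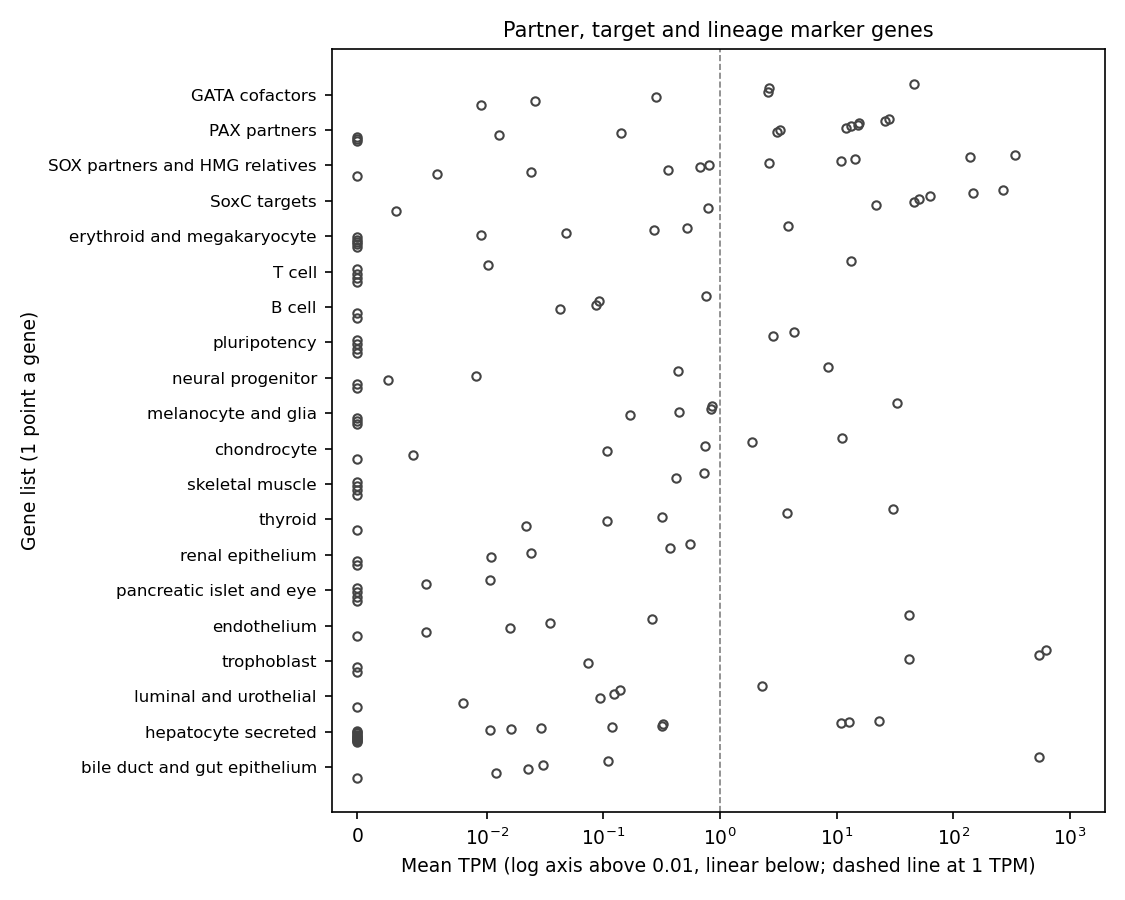
Mean TPM of 3 libraries (horizontal axis, logarithmic above 0.01 TPM and linear below, with a dashed line at 1 TPM) for the genes of each list, 1 point a gene. Most lineage lists have 0 to 3 genes above 1 TPM, and the highest points among them are CGA and KRT7 in the trophoblast list, with KRT7 also in the bile duct and gut list.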

How the data were processed

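RNA-seq was analysed in 3 libraries labelled wild-type HepG2. The study's methods name STAR 2.6.1a for alignment on GRCh38, and Trim Galore 0.6.2 and FastQC 0.11.8 for read quality. The submitters' processing notes list the same tools and StringTie, and reads were paired and 150 bp long. The annotation and strand setting are not given in the sources used here. The authors deposited 1 gene table per library, with coverage (mean signal depth over a gene, not scaled for depth), FPKM and TPM. The deposited TPM values were used unchanged, and the deposited coverage and FPKM values served as alternatives. The tables hold no counts, so no counting error is given, and precision is the SD over 3 libraries.

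Rows with the same coordinates in all tables were kept (43389 in all), and the 39320 on assembled chromosomes were analysed. The members and gene lists were chosen with earlier results of these data known. All SOX, PAX and GATA genes, the listed genes and rows that overlap or adjoin an expressed member within 5000 bp or carry a member's symbol were eligible to be named. Exon numbers came from GENCODE v44, and transcripts, gene types and promoters from RefSeq. The count of ranges above 1 was checked on simulated data. The alternatives were leaving out each replicate, pseudocounts, limits on TPM, units and scalings. Python 3.11.15, numpy 2.4.6, pandas 2.3.3, statsmodels 0.14.6 and matplotlib 3.10.9 were used.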

Additional observations from a re-analysis of the deposited data

How the results depend on the processing

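With a limit of 10 TPM, 5 genes in all, 4 SOX, 0 PAX and 1 GATA gene passed, in place of 13, 7, 3 and 3 at 1 TPM. By coverage, the share of the highest member was 35.0% for SOX13, 53.4% for PAX6 and 78.3% for GATA2. Across the sets that left out 1 library, 13 to 14 genes reached the limit, with SOX7 added without replicate 2, and the shares ranged from 35.6% to 35.9% for SOX13, from 70.0% to 70.8% for PAX6 and from 79.3% to 80.0% for GATA2. Scaling without mitochondrially encoded genes raised every other gene by a factor of 1.25 and added SOX7. The direction of the 5 log2 ratios given above was kept under the alternatives run. Only the change to coverage could have reversed a direction, since the other alternatives keep the order of the genes within each library. With a pseudocount of 0.1 the ratio moved from -1.19 to -3.26 for SOX5 to SOX6 and from 0.77 to 1.16 for SOX18 to SOX7. It moved from 3.79 to 4.42 for SOX13 to SOX6 and from 5.07 to 6.68 for GATA2 to GATA3, so these sizes depend on the pseudocount. No paired analysis was possible because every library belongs to a single condition. The tables hold no read counts, so no upper limit is given for a gene listed at 0.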

Other observations

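A zero is written in 2 ways in the deposited tables, as a bare 0.0 or with 6 decimals. Of the 14 genes listed at 0 in every library, 6 had the bare form in all 3 tables and 8 had the other form in at least 1 table. What separates the forms is not given in the sources used here.

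The ratio of coverage to FPKM was also low for GATA3, at 0.590, 0.590 and 0.585 of the highest ratio in replicates 1, 2 and 3, and for SOX5, at 0.575, 0.456 and 0.398. RefSeq lists 23 transcripts of GATA3 and 6 of SOX5. For SOX6, also with 6 in RefSeq, the ratio was at 0.880, 0.880 and 0.879, and for SOX13, with 1, at 0.970, 0.959 and 0.963. GENCODE lists 5 transcripts of GATA3, 23 of SOX5, 19 of SOX6 and 10 of SOX13. The annotation behind the deposited values is not given, and whether the number of transcripts set the ratio was not tested.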
